A study of Saccharomyces cerevisiae and Neurospora crassa and Schizosaccharomyces pombe with 13 samples.

Results

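Introns that lie wholly within the 5' untranslated region (5' UTR), the transcribed stretch before the start codon, were described in the annotation of the filamentous fungus Neurospora crassa. They were found on the longest transcript of each gene by summed exon length, as spaces between consecutive exons that end before the coding span begins. This gave 1154 introns in 1012 genes, out of 16983 introns and 9730 genes. Of the other introns, 15528 lay within coding spans and 301 in 3' UTRs. The 1012 genes were 13.2% of the 7657 genes with an annotated 5' UTR, and the 6645 genes whose 5' UTR has no intron served for comparison.

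The series itself holds 13 libraries of nucleosome footprints (MNase-seq) from 3 fungi. It includes 2 libraries of wild-type N. crassa conidia, the asexual spores, grown for 3.5 h in sucrose medium until most had germinated and fixed for 10 min in 1% formaldehyde. The other libraries are wild-type and isw2 mutant S. cerevisiae and wild-type S. pombe. The footprints of all 13 were not analysed here, so every value below describes the annotation on which the N. crassa footprints can be aligned. That annotation gives no sequencing depth for its gene models.

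An intron of a 5' UTR is spliced out of the RNA like any other, but removing it changes no codon. In fungi, plants and animals such introns are known to affect export, stability and translation of the RNA, and alternative splicing there can remove or add upstream reading frames and start codons. On the chromosome they also set how far the start codon lies from the transcript start, the point on which nucleosome profiles are usually aligned. No genome sequence of N. crassa was used, so no intron sequence, splice site or upstream reading frame is given.

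An annotation has no biological replicates. The units were therefore the 7 sequences of the assembly, called by their numbers. Each gave a value, and an SD is the spread of these 7 values rather than a measurement error. A difference was tested by flipping its sign on the sequences in every combination, a two-sided exact permutation test that cannot give a p below 0.0156. Adjusted p-values follow Benjamini and Hochberg over 12 tests.

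The introns were spread over all sequences and mostly single. Between 11.7% (sequence 4) and 14.8% (sequence 1) of annotated 5' UTRs held an intron, on average 13.1% ± 1.17 (SD, n = 7 sequences). A single intron was present in 882 genes, 2 in 121 genes, 3 in 7 genes, 4 in 1 gene and 5 in 1 gene. The number per gene with an intron averaged 1.14 ± 0.0266 over the sequences. Plus-strand genes made up 49.1% of those with a 5' UTR intron and 50.2% of those without.

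Introns of 5' UTRs were longer than introns of coding spans. On sequences 1 to 7 their median length was 101, 106, 98, 93, 114, 99 and 98 bp, against 74, 75, 76, 74, 74, 74 and 74 bp for coding introns. The lowest of the 7 values for 5' UTRs lay above the highest for coding spans. The mean difference was 26.9 ± 6.91 bp (SD, 7 of 7 sequences above 0), which passed the exact permutation test (p = 0.0156, adjusted p = 0.0208). The pooled medians had been known from earlier work on the same file, so the test is not independent of them. By means in place of medians, which long introns can move, the difference was 55.6 bp.

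The upper parts of the length distributions lay further apart than the lower parts. The quartiles were 69 and 191 bp for 5' UTR introns and 62 and 108 bp for coding introns. Lengths of 60 to 74 bp, the most frequent range in coding spans, covered 21.1% of 5' UTR introns, 32.1% of coding introns and 37.5% of 3' UTR introns. Lengths of 150 bp or more, about the DNA of a nucleosome core, covered 33.5% of 5' UTR introns (387 of 1154), 15.3% of coding introns (2383 of 15528) and 13.6% of 3' UTR introns (41 of 301). At 300 bp or more the numbers were 138 of 1154, 771 of 15528 and 11 of 301. The 3' UTR introns, which are also outside the coding span, had a median of 71 bp. Their difference from 5' UTR introns was not tested.

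**Figure D1:**
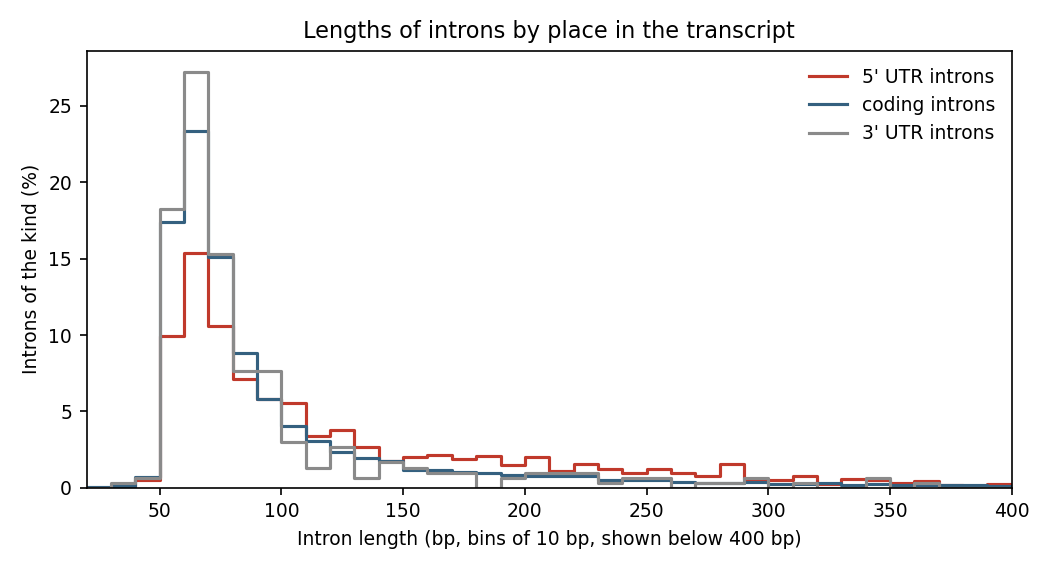
Percentage of introns of each kind (vertical axis) by length in bp in bins of 10 bp (horizontal axis, below 400 bp), for 1154 introns of 5' UTRs, 15528 of coding spans and 301 of 3' UTRs. All 3 kinds peak at 60 to 69 bp, where 5' UTR introns are the least frequent, and between 150 and 299 bp the line of 5' UTR introns lies above that of coding introns in every bin.

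The order of the introns along the transcript was held constant in a further comparison. Transcripts whose first intron lies in the 5' UTR were set against those whose first intron lies in the coding span. The latter include genes with no annotated 5' UTR, in which an earlier intron could not be seen. The median first intron averaged 103 ± 8.53 bp in the 5' UTR and 80.1 ± 1.95 bp in the coding span. The difference of 22.5 ± 8.61 bp was above 0 on 7 of 7 sequences (exact permutation p = 0.0156, adjusted p = 0.0208), and by means it was 46.4 bp. Among genes with both UTRs annotated it was 27.4 ± 9.46 bp.

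Within genes the result had the same direction. Introns of both kinds were present in 727 genes, and in 495 of them (68.1%) the 5' UTR introns were longer on average than the coding introns. The medians over these genes were 107 bp for 5' UTR introns and 73 bp for coding introns. On the sequences, the median within-gene difference averaged 27.0 ± 9.87 bp and ranged from 18 bp (sequence 7) to 44 bp (sequence 5). It was above 0 on 7 of 7 sequences (exact permutation p = 0.0156, adjusted p = 0.0208). With means in place of medians the within-gene difference was 76.1 bp.

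Median length differed between classes of distance from the transcript start, a genomic distance that includes any earlier intron. The 232 introns that begin within 150 bp of the transcript start were a median of 82 bp long, with quartiles of 64.8 and 124.5 bp. Further in, the medians were 100 bp for the 314 introns beginning from 150 bp to below 300 bp, 112 bp for the 357 from there to below 600 bp, 117 bp for the 170 from there to below 1000 bp and 103 bp for the 81 beyond. By distance to the start codon the medians differed less, at 101, 102, 102 and 94 bp for introns ending below 50, from 50 to below 150, from 150 to below 500 and 500 bp or more before it. These groups were not tested against each other.

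The introns lay nearer to the start codon than to the transcript start. Their first base followed the transcript start by a median of 325.5 bp, with quartiles of 174 and 549 bp. Their last base preceded the start codon by a median of 179.5 bp of genomic sequence, with quartiles of 65 and 427 bp. Of the 1154, 757 (65.6%) were nearer to the start codon. In all, 1073 introns (93.0%) began within 1000 bp of the transcript start, the stretch over which arrays of nucleosomes are commonly drawn, and 232 (20.1%) began within the first 150 bp. Within 50 bp of the start codon 237 introns (20.5%) ended.

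Position was also measured along the exonic 5' UTR, with 0 at the transcript start and 1 at the start codon. Over the 882 5' UTRs with a single intron, the relative position averaged 0.626 ± 0.0270 (SD, n = 7 sequences). This lay 0.126 above the middle of 0.5 on average, and above it on 7 of 7 sequences (exact permutation p = 0.0156, adjusted p = 0.0208). Positions of 0.75 or above held 352 of these introns (39.9%) and positions below 0.25 held 93 (10.5%). The lowest average was 0.577, on sequence 7, and the highest was 0.658, on sequence 5.

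**Figure D2:**
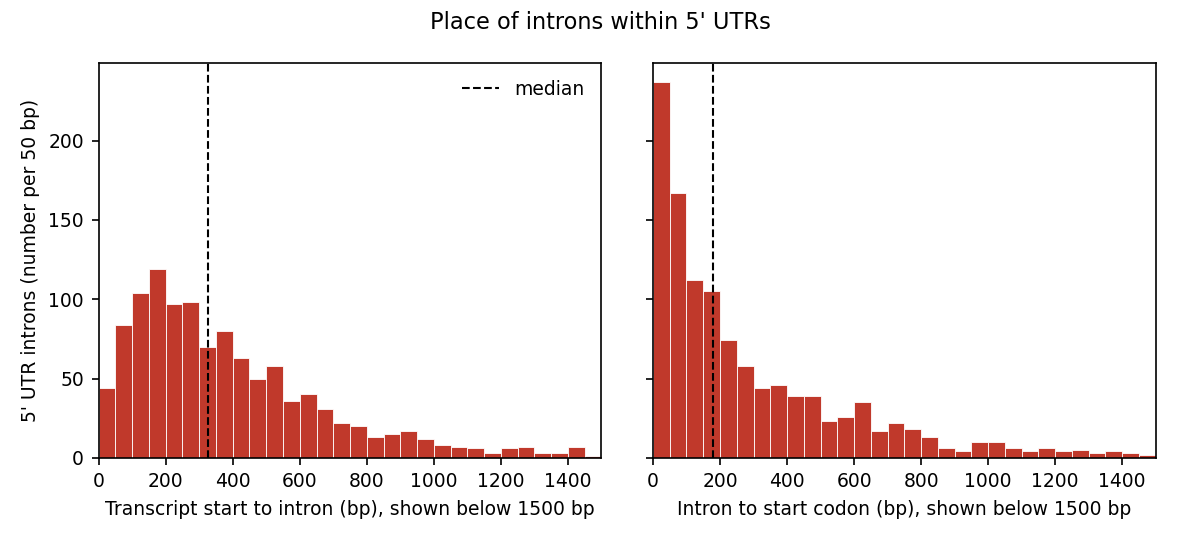
Number of 5' UTR introns per 50 bp (vertical axis) by genomic distance in bp from the transcript start to the intron (left) and from the intron to the start codon (right), below 1500 bp; dashed lines are the medians of all 1154 introns, 325.5 and 179.5 bp. The distances to the start codon are most frequent in the 50 bp next to it, whereas those from the transcript start are most frequent between 150 and 200 bp.

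At the edge of the definition, 6 introns ended directly before the start codon, with 0 bp between them. The 5 named by identifier order were those of NCU00464 (60 bp, sequence 3), NCU01158 (311 bp, sequence 5), NCU03297 (210 bp, sequence 1), NCU03340 (112 bp, sequence 2) and NCU05401 (148 bp, sequence 2). Just outside it, the start codon itself was interrupted by an intron in 24 genes, which counts as a coding intron. The first 5 of these were NCU00343 (111 bp), NCU01368 (56 bp), NCU01453 (64 bp), NCU02281 (66 bp) and NCU02348 (103 bp). Of the 24 genes, 3 had a 5' UTR intron as well.

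The exons around these introns varied widely in length. In genes with a 5' UTR intron the first exon, which is all UTR, had a median of 283 bp, a range of 16 to 3582 bp and quartiles of 160 and 489 bp. In the 5207 genes whose 5' UTR has no intron but whose coding span does, the first exon carries the 5' UTR and the beginning of the coding region together and had a median of 578 bp. The exon that holds the start codon began a median of 145.5 bp before it (quartiles 55 and 342 bp). Among the 130 genes with several 5' UTR introns, the 142 exons between them had a median length of 149.5 bp and quartiles of 83.5 and 302 bp, the shortest being 7 bp. The first of these introns was longer than the second in 73 of the 130 genes and shorter in 55, with medians of 93 and 85.5 bp.

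5' UTRs that held an intron were longer in exonic bases than those that did not, although the intron itself is not counted. On sequences 1 to 7 their median exonic length was 588, 502.5, 547.5, 505, 577, 552 and 606 bp, against 308.5, 296, 301, 283, 302, 290.5 and 268 bp without an intron. Every median with an intron lay above every median without. The averages were 554 ± 39.8 bp and 293 ± 13.7 bp, a difference of 261 ± 43.1 bp (7 of 7 sequences above 0, exact permutation p = 0.0156, adjusted p = 0.0208). A longer 5' UTR has more room to hold an intron, and those without begin at 1 bp. The direction of this test is therefore not independent of how the genes were chosen. Exonic 5' UTRs over 1000 bp made up 15.5% of those with an intron (157 genes) and 4.50% of those without (299 genes).

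The share of 5' UTRs with an intron was higher the longer the UTR, while the number of introns per exonic base was not. An intron was present in 24 of 809 5' UTRs of 1 to 100 bp (2.97%) and in 65 of 1460 of 101 to 200 bp (4.45%). For 201 to 300 bp the share was 9.80%, for 301 to 500 bp 11.2%, for 501 to 750 bp 22.8%, for 751 to 1000 bp 27.9% and for 1001 bp or more 34.4% (157 of 456). Per kb of exonic 5' UTR the same classes held 0.509, 0.300, 0.415, 0.308, 0.428, 0.391 and 0.332 introns, with no steady order. Length of the UTR thus moved with the presence of an intron, and the part of room alone in it was not tested.

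**Figure D3:**
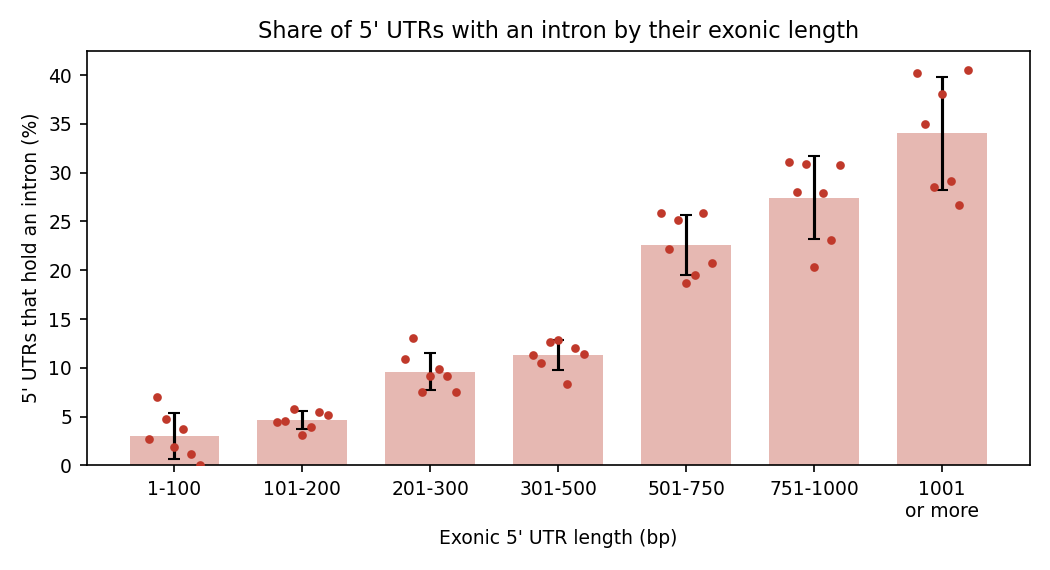
Percentage of 5' UTRs that hold an intron (vertical axis) by exonic 5' UTR length in bp (horizontal axis); bars are means over the 7 sequences, error bars their SD, and points the single sequences. The mean is 3.02% for the shortest and 34.0% for the longest class, and within the longest the sequences range from 26.7% to 40.5%.

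Introns were sparser in 5' UTRs than in coding spans of the same set of genes. Over the 7657 genes with a 5' UTR, 5' UTRs held 0.363 ± 0.0271 introns per kb of exon and coding spans 0.965 ± 0.0577. The difference was -0.601 ± 0.0653 per kb, below 0 on 7 of 7 sequences (exact permutation p = 0.0156, adjusted p = 0.0208). This density counts every annotated base, and 5' UTR ends were not checked against transcript data here.

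Together, intron and longer UTR placed the start codon far from the transcript start. In genes with a 5' UTR intron the genomic distance between them had a median of 737 bp and quartiles of 463 and 1054 bp, against 295 bp with quartiles of 165 and 495 bp in those without. Introns made up 22.5% of the bases in that stretch, with a median of 120 bp per gene. The start codon lay over 1000 bp after the transcript start in 292 of 1012 genes with an intron (28.9%) and in 299 of 6645 without (4.50%).

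Genes with a 5' UTR intron also had more room upstream. The distance from the transcript start to the next gene on either strand had a median of 802, 906, 856, 1017, 814, 929 and 844 bp on sequences 1 to 7, against 642, 718, 606, 660, 537, 743 and 749 bp for genes without. The means of these medians were 881 ± 75.4 bp and 665 ± 77.9 bp. Their difference of 216 ± 85.8 bp was above 0 on 7 of 7 sequences (exact permutation p = 0.0156, adjusted p = 0.0208). With means in place of medians, which single long gaps can move, it was 241 ± 427 bp and did not pass (exact permutation p = 0.219). The 1000 bp before the start were free of other genes in 46.1% of genes with an intron and in 37.4% of those without.

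3' UTRs were longer in these genes as well. Their median exonic length averaged 397 ± 36.7 bp in genes with a 5' UTR intron and 346 ± 13.7 bp in those without, among genes with a 3' UTR. The difference of 50.9 ± 29.8 bp was above 0 on 7 of 7 sequences (exact permutation p = 0.0156, adjusted p = 0.0208) and was largest on sequence 3, at 114 bp. Among genes with an exonic 5' UTR of 300 to 600 bp it was 22.3 ± 42.2 bp and did not pass (exact permutation p = 0.219). A 3' UTR intron was present in 26 genes with a 5' UTR intron (2.57%) and in 230 genes without (3.46%).

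Coding regions differed less. The number of coding introns per gene averaged 1.56 ± 0.128 with a 5' UTR intron and 1.56 ± 0.0898 without, a difference of -0.00756 ± 0.175 that was above 0 on 2 sequences and below it on 5 (exact permutation p = 0.938, adjusted p = 0.938). The difference ranged from -0.187 (sequence 5) to 0.345 (sequence 7). The groups differed in another count: 285 genes with a 5' UTR intron (28.2%) had no coding intron, against 1438 without (21.6%), counted on the longest transcript. Median coding length averaged 1431 ± 53.3 bp with a 5' UTR intron and 1341 ± 51.5 bp without. That difference, 89.8 ± 74.8 bp, was above 0 on 5 of 7 sequences and did not pass (exact permutation p = 0.0625, adjusted p = 0.0682). By means it was 250 ± 132 bp, and among genes with a coding intron it was 204 ± 151 bp; both passed (exact permutation p = 0.0156 and 0.0313). It was smaller and did not pass among genes with 1 transcript (31.3 bp, exact permutation p = 0.297), without genes that overlap another gene (39.0 bp, p = 0.453) and among genes with an exonic 5' UTR of 300 to 600 bp (57.2 ± 264 bp, p = 0.828).

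Lengths that are multiples of 3, which would keep a reading frame if an intron were retained, were about as frequent in both places. They made up 32.0% ± 1.77 of 5' UTR introns and 33.6% ± 1.03 of coding introns. The difference of -1.66 ± 1.29 percentage points was below 0 on 6 of 7 sequences (exact permutation p = 0.0313, adjusted p = 0.0375). It no longer passed when any of sequences 2 to 7 was left out. Those runs could not pass, since they keep sequence 1, the only one above 0, and 6 sequences of mixed sign are too few. It also did not pass under 3 of the 5 other alternatives.

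**Figure D4:**
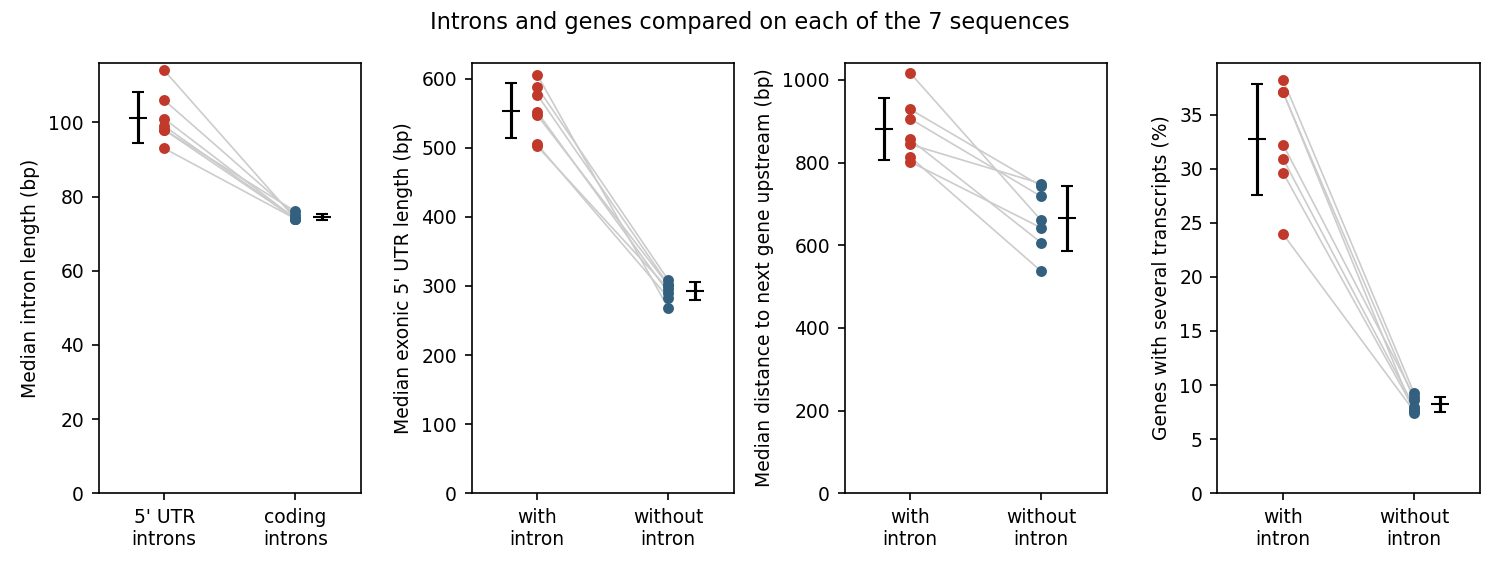
Values on each of the 7 sequences (points, joined by sequence) for 5' UTR introns or genes with such an intron (red) and for coding introns or genes whose 5' UTR has no intron (blue); black bars are mean and SD. From left to right the vertical axes are median intron length in bp, median exonic 5' UTR length in bp, median distance to the next gene upstream in bp, and percentage of genes with several transcripts. In every panel each red point lies above the blue point joined to it.

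Genes with a 5' UTR intron often had several annotated transcripts. The share averaged 32.7% ± 5.14 with a 5' UTR intron and 8.21% ± 0.719 without, or 340 of 1012 and 553 of 6645 genes. On single sequences it ran from 24.0% to 38.2% with an intron and from 7.40% to 9.23% without. The difference of 24.5 ± 4.82 percentage points was above 0 on 7 of 7 sequences (exact permutation p = 0.0156, adjusted p = 0.0208). Among genes with an exonic 5' UTR of 300 to 600 bp the difference was 25.3 ± 3.21 percentage points. It was smaller, 18.6 ± 4.70 percentage points, when the transcript with the longest coding length stood for each gene. Counting introns of any transcript, and not of the longest alone, 1242 genes had a 5' UTR intron. Genes counted as without can thus hold one on a shorter transcript.

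In these 340 genes most 5' UTR introns varied between the transcripts of a gene. Of their 404 5' UTR introns, 109 (27.0%) were present with both ends unchanged in every other transcript of the gene, against 577 of their 633 coding introns (91.2%). On the sequences these shares averaged 27.4% ± 6.01 for 5' UTR introns, from 19.2% to 38.0%, and 90.9% ± 5.56 for coding introns, from 82.6% to 97.8%. The ranges did not overlap, but the shares are not on an equal footing. The genes were chosen by the 5' UTR introns of their longest transcript. An intron also counted as not shared where another transcript began or ended inside it or lay to one side of it. This contrast was noticed in the data and not tested.

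The differences between transcripts took several forms. For 174 of the 404 introns (43.1%) another transcript had an intron with 1 end in common. The shared end was the first base in 85 introns, where the other end moved by a median of 28 bp, and the last base in 91, where it moved by a median of 52 bp, and an intron can count under both. An exon of another transcript covered 66 introns whole (16.3%), which is how a retained intron is annotated. These had a median length of 88.5 bp. Of the coding introns of the same genes, 18 of 633 (2.84%) were covered in this way. Choosing the transcript with the most exonic bases favours transcripts that retain an intron, and such introns are then not counted. For 44 of the 404 introns of 5' UTRs another transcript began or ended inside the intron, and for 29 it lay entirely to one side. In 39 cases (9.65%) the same intron was a coding intron of another transcript, whose start codon lies further upstream. Transcripts of these genes began at different bases in 202 of 340 genes (59.4%). Among genes with several transcripts whose longest has a 5' UTR without an intron, it was 302 of 553 (54.6%). Start codons lay at different bases in 94 (27.6%) of the former and 144 (26.0%) of the latter. The latter can include genes with a 5' UTR intron on a shorter transcript.

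Few of the introns lay under another gene. Another gene's span overlapped 21 of the 1154 introns (1.82%), in 20 of them on the opposite strand only. The same share for coding introns is not given here. The whole stretch from transcript start to start codon was overlapped by another gene in 48 genes with an intron (4.74%) and 237 without (3.57%). These stretches differ in length, with medians of 737 bp with an intron and 295 bp without. The transcript start itself lay within another gene in 34 (3.36%) and 167 (2.51%) genes.

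The 10 genes with the longest 5' UTR introns are given by identifier, since the annotation pairs identifiers with no symbols, and in NC12 coordinates. The longest, 1873 bp, is the second intron of NCU05721, which is encoded on the minus strand, and occupies 631539 to 633411 of sequence 3. It follows a first intron of 60 bp and places the start codon 3519 bp after the transcript start. NCU01744, on the minus strand of sequence 2, has a single 5' UTR intron of 1775 bp at 2574197 to 2575971, and 3 coding introns in a coding length of 6348 bp. NCU04254, on the plus strand of sequence 5, has 5' UTR introns of 1593 bp (5370745 to 5372337) and 148 bp, and 0 coding introns. NCU05891, on the minus strand of sequence 7, has 1 intron of 1316 bp (4183513 to 4184828) after a first exon of 1646 bp and likewise 0 coding introns. In each of these 4 genes the intron alone is longer than 737 bp, the median of the whole stretch from transcript start to start codon.

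NCU00768 (sequence 1, plus strand, 7239594 to 7245038) was the gene with the most 5' UTR introns and also among the 10 with the longest. Its 5 introns measure 65, 1167, 61, 284 and 849 bp and are separated by exons of 75, 47, 93 and 77 bp, and the last ends 4 bp before the start codon. The exonic 5' UTR of 623 bp is thus spread over 3049 bp, before a coding length of 1173 bp with 5 further introns. Each of these inner exons is shorter than the DNA of a nucleosome core.

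The other 5 of the 10 genes had a longest 5' UTR intron between 941 and 1148 bp. These introns are in NCU05242 (1148 bp, sequence 4, 5637547 to 5638694), NCU04001 (1097 bp, sequence 6, 2236026 to 2237122), NCU08821 (1023 bp, sequence 4, 5133171 to 5134193), NCU02819 (989 bp, sequence 1, 9006016 to 9007004) and NCU04757 (941 bp, sequence 6, 694648 to 695588). In all 5 the long intron is the first of the transcript. NCU08821 and NCU02819 carry a second 5' UTR intron, of 153 and 226 bp. The next gene upstream lay 2517 bp or more away from the start in each of these 5, and 19278 bp away for NCU02819. For the 5 genes with longer introns it lay between 780 bp (NCU04254) and 4315 bp (NCU01744) away.

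Other extremes marked the range of the 5' UTRs. The shortest intron, 46 bp, is the first of NCU06446 (minus strand, sequence 3, 1439756 to 1439801) and is followed after 43 bp of exon by one of 73 bp. The shortest exonic 5' UTR with an intron, 27 bp, belongs to NCU09756 (plus strand, sequence 2), whose intron of 65 bp begins 19 bp after the transcript start and ends 8 bp before the start codon. The intron nearest to a transcript start, at 16 bp, is that of NCU08996 (82 bp, sequence 3, 4170943 to 4171024). The intron farthest from its start, at 3582 bp, is that of NCU00144 (96 bp, sequence 3, 2779184 to 2779279), whose 5' UTR is overlapped by 1 other gene on the opposite strand.

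NCU09637 (sequence 4, minus strand, 8110 to 19545) had the longest exonic 5' UTR, 9173 bp, and the largest distance to the start codon, 9232 bp. Its only 5' UTR intron measures 59 bp (18598 to 18656) and lies 889 bp after the transcript start. The coding length is 1290 bp. NCU09638, on the opposite strand, overlaps this intron, so that the 5' UTR and the other gene cover the same DNA.

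**Figure D5:**
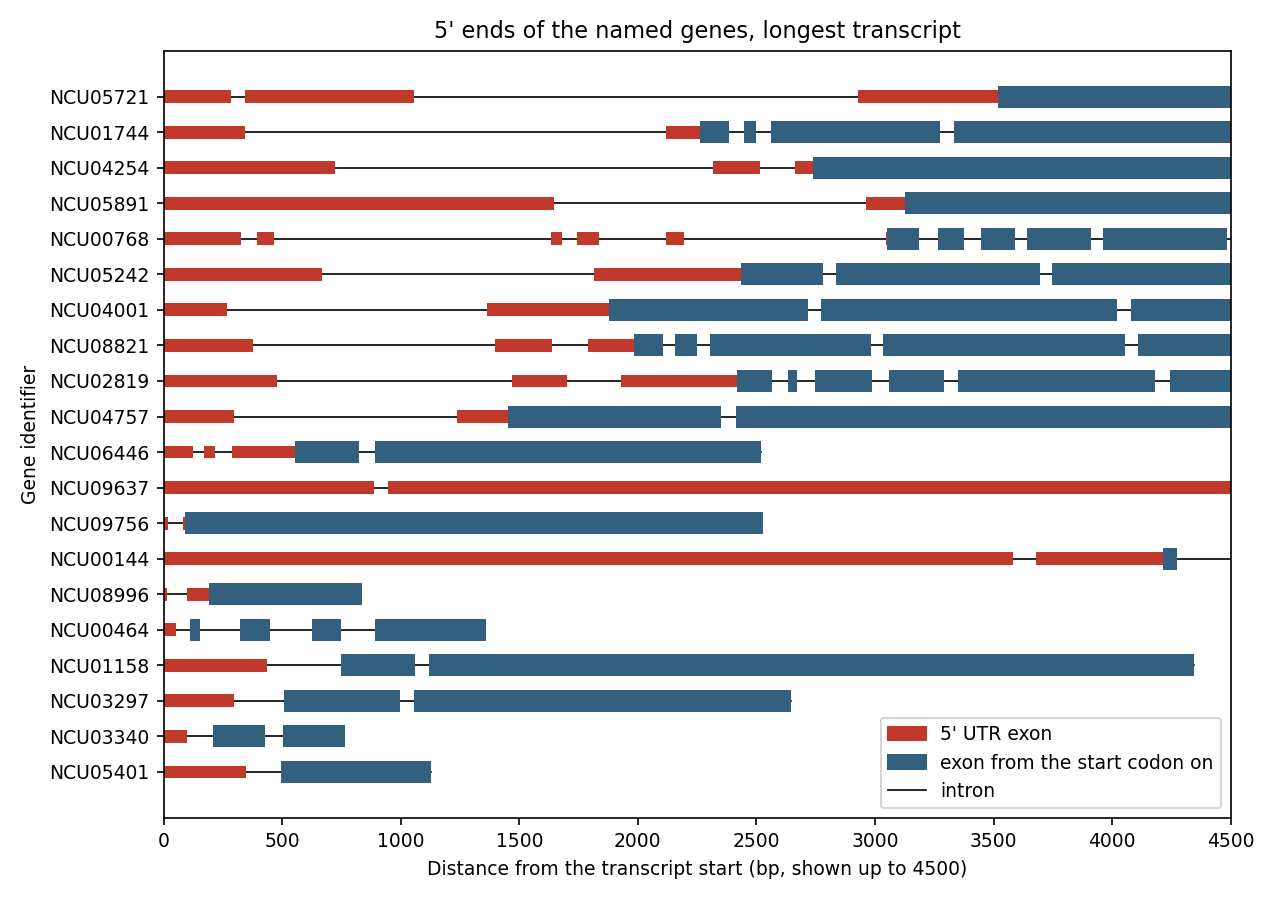
Exons and introns of the longest transcript of the 20 genes named by rule (vertical axis), by distance in bp from the transcript start (horizontal axis, shown to 4500 bp): red boxes are 5' UTR exons, blue boxes are exons from the start codon on, 3' UTR included, and lines are introns. The 10 genes at the top carry the longest 5' UTR introns, of 941 to 1873 bp; the 5 at the bottom have an intron that ends directly before the start codon.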

How the data were processed

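The deposited file used here is a GTF gene annotation that belongs to no library. Its values are record boundaries in bp, with positions counted from 1. Per the deposited file's source field they are NC12 gene calls, and its name adds strain OR74A and says they were fixed, without stating how. The file holds no score or depth. From its 81022 records, 10785 transcripts of 9730 genes were built. The longest transcript by exonic length stood for each gene (ties by identifier), and its coding span ran over all CDS and codon records. The quantities were the 12 named in the report. Genes were named by rule: the 10 longest introns, the most introns, and the extremes of length and distance. The symbol table used here covers S. cerevisiae, and 0 of the 9730 identifiers matched it, so no functional gene lists were used. Alternatives changed the transcript, the gene models, the summary, the shortest intron, the genes compared and the sequences. The members and lists were chosen with earlier results of these data known. Calculations ran in Python 3.11.15 with NumPy 2.4.6 and matplotlib 3.10.9, and were tested on a simulated annotation.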

Additional observations from a re-analysis of the deposited data

Results flagged for a closer look

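Of 18 quantities checked over the 7 sequences, 2 had a sequence that stood apart from the others; chance marks about 1 in 20 such sets. Sequence 1 held 327 introns of 5' UTRs, and it is also the sequence with the most genes, 2347. On sequence 3 the 3' UTRs of genes with a 5' UTR intron exceeded those of genes without by 114 bp, where the other sequences gave 26.5 to 56 bp; without sequence 3 the mean difference was 40.3 bp.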

How the results depend on the processing

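No paired analysis was possible because the replicate numbers belong to libraries whose footprints were not analysed here. This concerns libraries alone, since the tests set values of the same sequence against each other, and 1 of them compares introns within genes. The exception is relative position, which is set against the fixed middle of 0.5. Of 154 alternatives over the 12 quantities, 138 left the result in its direction and on its side of the test; 84 of the 154 leave out a sequence. The 9 quantities that were above or below 0 on all 7 sequences could not fail those, so they bear on size alone. Restricting to genes with both UTRs cannot change the 3' UTR result, and genes with 1 transcript give no value for the share with several. The alternative without overlapping genes was added after the data were seen, and it changed no call.

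The difference in multiples of 3, -1.66 percentage points, no longer passed with genes of 1 transcript (-2.82), with the transcript of longest coding length (-1.87) or with genes having both UTRs (-0.934); leaving out each sequence gave -2.01 to -1.37. The upstream distance did not pass by means (241 bp), nor the 3' UTR difference among 5' UTRs of 300 to 600 bp (22.3 bp). Coding length passed by means (250.1 bp) and among genes with a coding intron (204 bp), and was 31.3 bp with genes of 1 transcript, 39.0 bp without overlapping genes and 57.2 bp among 5' UTRs of 300 to 600 bp, against 89.8 bp. Coding introns per gene, which did not pass in any run, changed sign when sequence 2, 3 or 5 was left out, from -0.0662 to 0.0224 over the 7 runs. The causes were not tested. The annotation gives no score or depth, so whether transcript coverage differs between the groups compared was not tested.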
